A study of Homo sapiens with 4 samples.

Results

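The 10 genes described here encode the TGF-beta ligands (TGFB1, TGFB2, TGFB3), their receptors (TGFBR1, TGFBR2, TGFBR3) and the latent TGF-beta binding proteins (LTBP1, LTBP2, LTBP3, LTBP4). They were taken by gene symbol, and all 10 were found among the 39261 genes of the deposited tables. Sequencing covered 4 cultures of 2 human breast cancer cell lines, 1 library each. One line was MDA-MB-231, which is triple-negative and mesenchymal in shape and markers, with TMEM126A knocked down or with a control vector (sh-NC). The other was MCF10-Ca1a (Ca1a), a tumour-forming member of the MCF10A series of mammary epithelial lines, with TMEM126A overexpressed or with a control vector (pCDH). All constructs came by lentivirus. Both lines were kept at passages 10 to 15, Ca1a with horse serum, insulin, EGF, cholera toxin and hydrocortisone and MDA-MB-231 with fetal bovine serum, so line and medium cannot be told apart. The knockdown construct was not further described in the labels, and each group stands for 1 culture of a cell line in a dish.

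TGF-beta is made as a precursor whose cleaved propeptide, the latency-associated peptide, stays wrapped around the ligand. LTBP1, LTBP3 and LTBP4 bind this latent form and tether it to fibrillin and fibronectin fibres, whereas LTBP2 is a fibrillin-binding relative that does not carry latent TGF-beta. Integrins, proteases and thrombospondin release the ligand, which binds the receptor kinase TGFBR2 with TGFBR1 and so activates SMAD2 and SMAD3. TGF-beta restrains the growth of normal mammary epithelium and can favour invasion in advanced breast cancer.

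TMEM126A encodes a mitochondrial inner membrane protein, and its level went with the labels. It was 24.5-fold lower in the knockdown library (95% interval 16.1 to 38.9) and 35.4-fold higher in the overexpression library (31.3 to 40.1). The 4 libraries held 20673373 to 21405193 reads. EPCAM and CDH1, epithelial adhesion genes, stood at 131 and 73.6 FPKM in the Ca1a control and 3.10 and 0.203 FPKM in the MDA-MB-231 control, and VIM, a mesenchymal filament gene, at 90.5 and 721 FPKM. KRT5, KRT17 and ZEB1 split the lines in the same way. The epithelial KRT8 and KRT18 were also high in the MDA-MB-231 control, at 112 and 110 FPKM, beside 393 and 470 FPKM in the Ca1a control. The mesenchymal CDH2 and SPARC were under 1 FPKM in both. FPKM is a level per transcript length and depth, and it is used below to set genes or lines beside each other, except where reads are named. Markers of other cell types (fibroblast, immune, endothelial, adipocyte) were low: 13 of 18 stayed under 1 FPKM in every library, the highest was CD14 at 4.65 FPKM, and the summed level ran from 6.16 to 7.84 FPKM.

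Since each group is 1 library, the differences carry no replicate check and no p-value was computed. Ratios are of normalized counts, treated over control, with exact 95% intervals that cover counting error only. In MDA-MB-231 these counts were taken to be reads divided by the authors' size factor. In both Ca1a libraries 1 normalized count is 1 read, so no size factor shows there. A difference is called beyond counting error where this interval leaves out 1, among genes whose mean reaches 20 normalized counts. The 2-fold rule further asks that the log2 ratio, after adding 1 to each value, reach 1 or -1. Bulk RNA cannot tell fewer expressing cells from less RNA per cell.

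In the knockdown comparison the LTBP genes were the part of the family that moved together: all 4 were higher, by 1.16-fold to 1.28-fold, while TGFB1, TGFB3 and TGFBR1 stayed within counting error and TGFBR3 was lower. Of the 10 genes, 6 (the LTBP genes, TGFB2 and TGFBR2) were higher beyond counting error, against 16.8% of 13292 tested genes, and 1 was lower, against 11.3%. Intervals narrow with abundance. Of genes whose mean reached 500 normalized counts, 21.8% were higher and 14.6% lower. Of the 9 family genes at that level, 6 were higher and 1 lower. None of the 10 passed the 2-fold rule, which 0.391% of tested genes passed. The median log2 ratio of the 10 was 0.16, beside 0.01 over all tested genes.

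In the overexpression comparison TGFB1 and TGFB2 went in opposite directions, TGFB1 2.12-fold lower and TGFB2 2.0-fold higher, while TGFB3 stayed within counting error. Of the 9 genes with enough reads, 2 (TGFB2 and LTBP2) were higher beyond counting error, against 18.1% of 12111 tested genes, and 5 (TGFB1, TGFBR1, LTBP1, LTBP3 and LTBP4) were lower, against 16.2%. At a mean of at least 500, 1 of 6 was higher and 4 were lower, against 23.6% and 20.8% of genes. TGFB1 alone passed the 2-fold rule, which 0.553% of tested genes passed. TGFB2 fell just short of it, with a log2 ratio of 0.99 after the addition of 1. The median log2 ratio of the 9 was -0.25, beside 0.01 over all tested genes. The authors' deposited table from DESeq gives none of the 10 genes an adjusted p under 0.05 in either comparison. The same held for nearly all genes in both comparisons. Those values rest on 1 library per group and carry no replicate check.

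**Figure D1:**
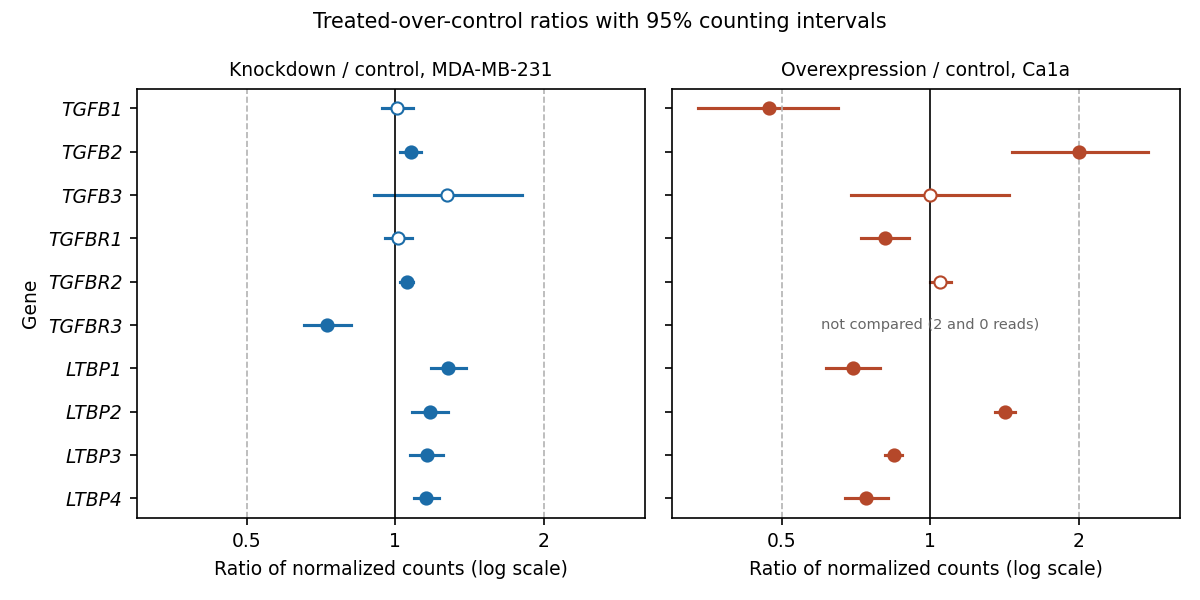
Ratio of normalized counts, treated over control (log scale), for each of the 10 genes in MDA-MB-231 (left) and Ca1a (right); bars are 95% counting intervals, filled points have intervals that leave out 1 and dashed lines mark 2-fold. All 4 LTBP genes lie right of 1 in the knockdown comparison, and TGFB1 (0.472) and TGFB2 (2.0) lie on opposite sides of 1 in the overexpression comparison.

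The control libraries asked how far the lines differ before TMEM126A is changed. MDA-MB-231 carried far more ligand transcript, and Ca1a more LTBP2 and LTBP3. Of 9 genes with at least 1 FPKM in either control, 6 were at least 2-fold higher in MDA-MB-231 (TGFB1, TGFB2, TGFBR1, TGFBR2, TGFBR3 and LTBP4), against 26.8% of 12101 genes, and 2 were at least 2-fold higher in Ca1a (LTBP2 and LTBP3), against 13.6%. LTBP1 differed by less than 2-fold, and TGFB3 was under 1 FPKM in both. The median gene was itself 0.31 higher in MDA-MB-231 on the log2 scale of FPKM + 0.1. Relative to that shift the log2 ratio of LTBP4 was 0.98, under 2-fold, and the calls of the other 7 genes held.

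In the MDA-MB-231 control the order of levels was TGFBR2, TGFB1, TGFB2, LTBP4, TGFBR1, LTBP3, LTBP1, LTBP2, TGFBR3 and TGFB3, from 62.7 down to 0.584 FPKM. In the Ca1a control it was LTBP3, TGFBR2, LTBP2, LTBP4, TGFBR1, LTBP1, TGFB1, TGFB3, TGFB2 and TGFBR3, from 48.4 FPKM down to 0. A single library per line gives no spread, so neighbours in these orders (TGFB1 and TGFB2 in MDA-MB-231, TGFB3 and TGFB2 in Ca1a) cannot be called different.

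**Figure D2:**
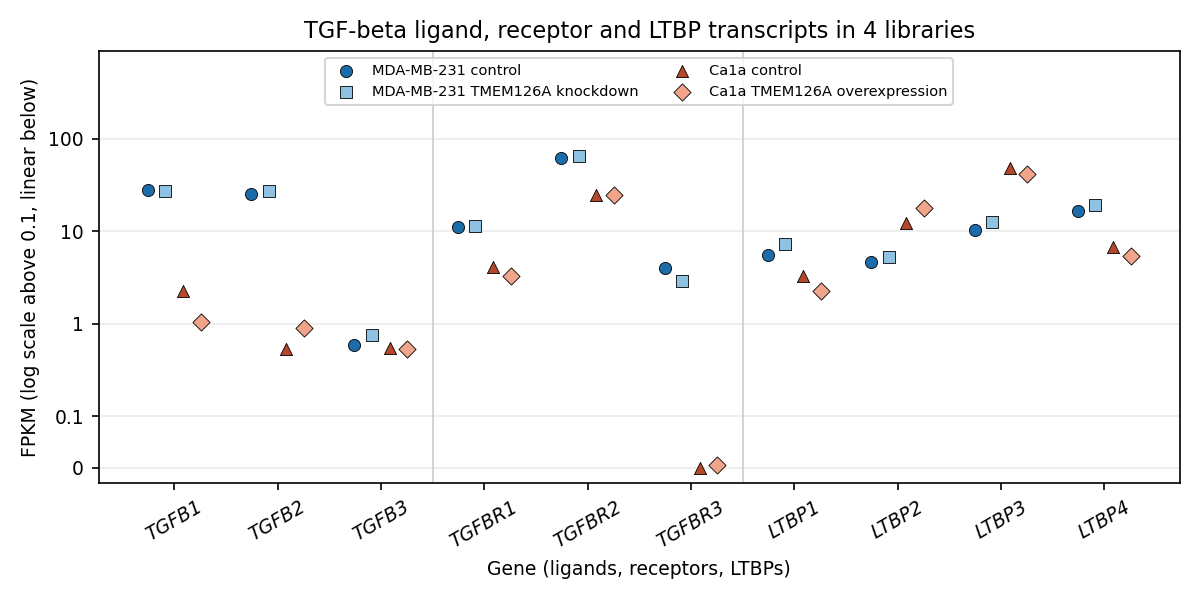
FPKM of the 10 genes (log scale above 0.1 and linear below) in the 4 libraries, 1 point per library. The MDA-MB-231 points of TGFB1 and TGFB2, at 25.7 to 28.0 FPKM, lie above the Ca1a points, at 0.529 to 2.28 FPKM, whereas for LTBP2 and LTBP3 the Ca1a points are the higher ones.

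Among the ligands, TGFB1 (Entrez 7040, chromosome 19 from 41301587 to 41353911 on the minus strand of GRCh38) encodes the isoform most often raised in tumours. In MDA-MB-231 it stood at 28.0 FPKM in the control and 27.2 in the knockdown library, and at 2.28 FPKM in the Ca1a control and 1.04 in the overexpression library. The MDA-MB-231 control was thus 12.3-fold above the Ca1a control. In normalized counts TGFB1 had 1536 in the MDA-MB-231 control (1460 to 1616) and 1551 in the knockdown library (1475 to 1630), a ratio of 1.01 (0.940 to 1.08). Ca1a gave 123 reads in the control (102 to 147) and 58 in the overexpression library (44.0 to 75.0), which is 2.12-fold lower (1.54 to 2.95). The 2 intervals of the Ca1a libraries do not overlap, and those of the MDA-MB-231 libraries do. In GENCODE release 29, 215 of its 3238 exonic bases lie in exons of HNRNPUL1 on the other strand.

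TGFB2 (Entrez 7042, chromosome 1 from 218346235 to 218444619 on the plus strand) encodes the isoform whose propeptide lacks the RGD motif that integrins grip in TGFB1 and TGFB3. It stood at 25.7 FPKM in the MDA-MB-231 control and 27.4 in the knockdown library, and at 0.529 FPKM in the Ca1a control and 0.903 in the overexpression library. This 48.6-fold gap between the controls was the largest fold among family genes with FPKM above 0 in both. The MDA-MB-231 control had 3158 normalized counts (3049 to 3271) and the knockdown library 3393 (3280 to 3509), a ratio of 1.07 (1.02 to 1.13). Ca1a gave 62 reads in the control (47.5 to 79.5) and 124 in the overexpression library (103 to 148), a ratio of 2.0 (1.46 to 2.76), and the FPKM ratio was smaller, at a log2 value of 0.77. The intervals of the single libraries did not overlap in either line, although the knockdown difference was small.

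Counting may be incomplete for TGFB2. Of its 5151 exonic bases in GENCODE release 29, 1371 are shared with TGFB2-OT1, a noncoding RNA of the same strand at its 3′ end. TGFB2-OT1 has 0 reads in all 4 libraries of the count tables, while its FPKM was 6.0 in the MDA-MB-231 control and 7.33 in the knockdown library, and 0.0947 in the Ca1a control and 0.280 in the overexpression library. The antisense gene TGFB2-AS1 had 25 reads in each MDA-MB-231 library, and 2 and 1 in the Ca1a control and overexpression libraries.

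TGFB3 (Entrez 7043, chromosome 14 from 75958099 to 75982991 on the minus strand) encodes the isoform known for palate and mammary development. It was the one ligand at a like level in both lines, at 0.584 FPKM in the MDA-MB-231 control, 0.762 in the knockdown library, 0.542 in the Ca1a control and 0.542 in the overexpression library. The knockdown ratio was 1.27 (0.903 to 1.81), and the overexpression ratio was 1.0 (0.692 to 1.45) on 62 reads in each library. Both lay within counting error. On so few reads the interval in Ca1a leaves room for a change of up to 1.45-fold in either direction, from counting error alone.

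The summed ligand level was 54.3 FPKM in the MDA-MB-231 control and 55.4 in the knockdown library, against 3.35 in the Ca1a control and 2.48 in the overexpression library. TGFB1 made up 51.6% of it in the MDA-MB-231 control and 49.1% in the knockdown library. In Ca1a its share was 68.0% in the control and 41.8% in the overexpression library, where TGFB2 went from 15.8% to 36.4%. Reads, unlike FPKM, are not divided by transcript length. Reads of TGFB2 per read of TGFB1 were 0.504 in the Ca1a control and 2.14 in the overexpression library, 4.22-fold apart (2.68 to 6.72). The same quantity in MDA-MB-231 was 2.06 in the control and 2.19 in the knockdown library, 1.06-fold apart (0.976 to 1.16). This pair was singled out after its values were seen.

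**Figure D3:**
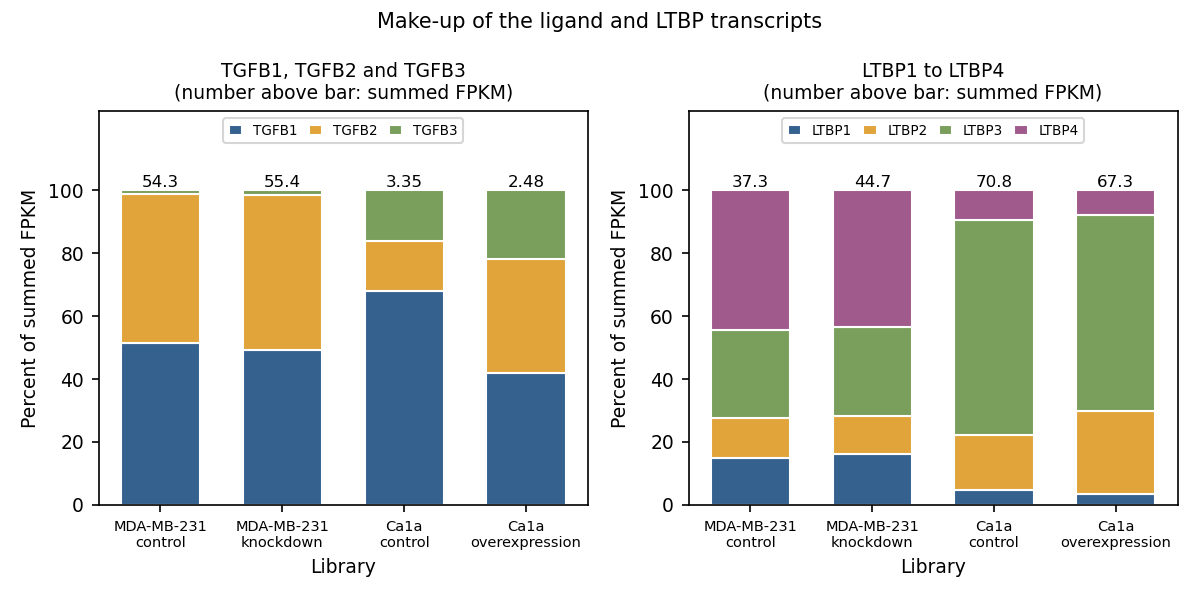
Share of each gene in the summed FPKM of the 3 ligand genes (left) and the 4 LTBP genes (right) in each library, with the sum printed above the bar. The TGFB1 share is 68.0% in the Ca1a control and 41.8% in the overexpression library, and LTBP3 makes up 68.4% and 62.0% of the LTBP level there.

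The start regions of TGFB1 and TGFB2 are shown because these genes went opposite ways in Ca1a. Each is the 250 bases before the RefSeq start of the gene on GRCh38.p14, read 5′ to 3′ on the gene's strand, with motif matches in capitals. The TGFB1 window is chr19:41353923-41354172 on the minus strand, and the TGFB2 window is chr1:218345086-218345335 on the plus strand. The TGFB2 start in RefSeq lies upstream of the GENCODE release 29 gene start given above.
TGFB1: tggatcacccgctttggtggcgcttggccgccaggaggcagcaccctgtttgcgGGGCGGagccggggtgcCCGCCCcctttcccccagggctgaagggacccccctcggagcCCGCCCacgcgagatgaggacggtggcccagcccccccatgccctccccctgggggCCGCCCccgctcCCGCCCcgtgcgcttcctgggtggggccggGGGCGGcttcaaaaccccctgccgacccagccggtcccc
TGFB2: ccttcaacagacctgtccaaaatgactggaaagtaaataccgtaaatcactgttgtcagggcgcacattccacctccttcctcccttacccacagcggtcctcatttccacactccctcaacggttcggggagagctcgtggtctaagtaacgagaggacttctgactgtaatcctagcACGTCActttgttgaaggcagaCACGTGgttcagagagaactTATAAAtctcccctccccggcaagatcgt
Motifs were searched on both strands: the GC box GGGCGG, the TATA box TATAAA, the E-box CACGTG, the CRE TGACGTCA, its core ACGTCA (which every CRE match also holds) and the AP-1 site TGAGTCA. Motifs were chosen with the windows in view. The TGFB1 window holds 6 GC boxes and none of the others, and 76.8% of its bases are G or C. At least 6 GC boxes stand in 2.22% of 35116 such windows, and at least 1 in 42.6%. The TGFB2 window is 50.4% G or C and holds a TATA box at bases -29 to -24 before the start, an E-box at -49 to -44 and a CRE core at -71 to -66. TATAAA stands in 10.7% of windows, CACGTG in 6.34% and ACGTCA in 7.10%, and 0.0712% hold all 3. The full CRE, found in 1.65% of windows, and the AP-1 site, in 4.2%, are in neither. The matches are not particular to these genes. A window of TGFB3, which stayed within counting error in Ca1a, also holds TATAAA and ACGTCA. One window of TGFBR1, which was lower in Ca1a as TGFB1 was, also holds 6 GC boxes, and its other windows hold fewer. The matches describe letters and not binding.

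Among the receptors, TGFBR2 (Entrez 7048, chromosome 3 from 30606502 to 30694142 on the plus strand) encodes the kinase that binds the ligand first. It was the most abundant of the 10 in MDA-MB-231, at 62.7 FPKM in the control and 65.4 in the knockdown library, and second in Ca1a, with 24.7 FPKM in the control and 24.9 in the overexpression library. Its normalized counts were 8633 in the MDA-MB-231 control and 9096 in the knockdown library, a ratio of 1.05 (1.02 to 1.09). In Ca1a they were 3401 in the control and 3563 in the overexpression library, a ratio of 1.05 (0.999 to 1.10). Both ratios were close to 1, and only the one in MDA-MB-231 left out 1, on more reads.

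TGFBR1 (Entrez 7046, chromosome 9 from 99104038 to 99154192 on the plus strand) encodes the partner kinase that phosphorylates SMAD2 and SMAD3. It stood at 11.3 FPKM in the MDA-MB-231 control and 11.4 in the knockdown library, with a ratio of normalized counts of 1.01 (0.952 to 1.08). In Ca1a it stood at 4.13 FPKM in the control and 3.26 in the overexpression library. There it had 701 reads in the control and 568 in the overexpression library, which is 1.23-fold lower (1.10 to 1.38). The FPKM of TGFBR2 was 5.55 times that of TGFBR1 in the MDA-MB-231 control, 5.76 times in the knockdown library, 5.99 times in the Ca1a control and 7.64 times in the overexpression library. The overexpression library had the highest ratio of the 4.

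TGFBR3 (Entrez 7049, chromosome 1 from 91680343 to 91906335 on the minus strand) encodes betaglycan, a co-receptor that presents ligand, TGFB2 above all, to the kinases. It was the one member lower in the knockdown library, with 782 normalized counts in the control (728 to 839) and 569 in the knockdown library (524 to 618), which is 1.37-fold lower (1.23 to 1.53). Its FPKM was 4.0 in the MDA-MB-231 control and 2.89 in the knockdown library. Ca1a gave 0 reads in the control (0 to 3.69) and 2 in the overexpression library, so no ratio is given there. Scaled by total reads, the MDA-MB-231 control, with 777 reads, was 267-fold above the Ca1a control when the latter is put at a set floor of 3 reads. This fold depends on the floor. Over the alternative settings the log2 ratio of the 2 controls ran from 2.32 to 8.56.

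Among the latent binding proteins, LTBP1 (Entrez 4052, chromosome 2 from 32946972 to 33399509 on the plus strand) encodes the founding member that links latent TGF-beta to the matrix. It stood at 5.60 FPKM in the MDA-MB-231 control and 7.29 in the knockdown library, and at 3.26 FPKM in the Ca1a control and 2.28 in the overexpression library. The MDA-MB-231 control had 1064 normalized counts (1000 to 1130) and the knockdown library 1362 (1290 to 1436), 1.28-fold higher (1.18 to 1.39). Ca1a gave 609 reads in the control (562 to 659) and 424 in the overexpression library (385 to 466), 1.44-fold lower (1.27 to 1.63). Neither pair of intervals overlapped. Of the exonic bases of LTBP1, 249 of 7329 lie in exons of an antisense gene, and for LTBP2 207 of 9091 lie in exons of a noncoding gene on the other strand.

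LTBP3 (Entrez 4054, chromosome 11 from 65538805 to 65558930 on the minus strand) encodes a carrier of latent TGF-beta known for its roles in bone and teeth. It was the most abundant of the 10 in Ca1a, with 48.4 FPKM in the control and 41.8 in the overexpression library, and in MDA-MB-231 it stood at 10.4 FPKM in the control and 12.6 in the knockdown library. It had 1227 normalized counts in the MDA-MB-231 control (1159 to 1297) and 1420 in the knockdown library (1348 to 1496), 1.16-fold higher (1.07 to 1.25). Ca1a gave 5739 reads in the control and 4837 in the overexpression library, 1.19-fold lower (1.14 to 1.23).

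LTBP4 (Entrez 8425, chromosome 19 from 40592883 to 40629818 on the plus strand) encodes a binding protein needed for elastic fibres. It led the LTBP genes in MDA-MB-231, at 16.6 FPKM in the control and 19.5 in the knockdown library, and in Ca1a it stood at 6.73 FPKM in the control and 5.38 in the overexpression library. It had 2293 normalized counts in the MDA-MB-231 control (2200 to 2389) and 2651 in the knockdown library (2551 to 2753), 1.16-fold higher (1.09 to 1.22). Ca1a gave 888 reads in the control and 659 in the overexpression library, 1.35-fold lower (1.22 to 1.49). LTBP1, LTBP3 and LTBP4, the 3 that carry latent TGF-beta, were thus higher in the knockdown library and lower in the overexpression library. Over all tested genes, 16.8% were higher with knockdown and 16.2% lower with overexpression, and the share with both was not computed. This grouping leaves out LTBP2 and was made with the values in view. The difference between the comparisons was not tested, and they share no library.

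LTBP2 (Entrez 4053, chromosome 14 from 74498170 to 74612378 on the minus strand), which encodes the member that does not carry latent TGF-beta, was higher in both comparisons. It stood at 4.72 FPKM in the MDA-MB-231 control and 5.30 in the knockdown library, with 1048 normalized counts in the control and 1232 in the knockdown library, 1.18-fold higher (1.08 to 1.28). In Ca1a it stood at 12.4 FPKM in the control and 17.9 in the overexpression library, with 2836 reads in the control (2733 to 2942) and 4015 in the overexpression library (3892 to 4141), 1.42-fold higher (1.35 to 1.49). The summed LTBP level was 37.3 FPKM in the MDA-MB-231 control, 44.7 in the knockdown library, 70.8 in the Ca1a control and 67.3 in the overexpression library. LTBP2 made up 17.5% of it in the Ca1a control and 26.6% in the overexpression library, and in MDA-MB-231 it made up 12.6% in the control and 11.9% in the knockdown library.

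Outside the family, the genes of latency and activation included 14 at 1 FPKM or more in either control. Of these 7 were at least 2-fold higher in MDA-MB-231, against 26.8% of genes at that level, and 3 in Ca1a, against 13.6%. With TMEM126A, 1 of 14 tested genes of the list (ITGB8) passed the 2-fold rule in the knockdown comparison, against 0.391% of all tested genes. In the overexpression comparison 0 of 12 passed, against 0.553%. List counts here and below are of genes beyond counting error. They stand beside the shares of all tested genes: 16.8% higher and 11.3% lower with knockdown, 18.1% and 16.2% with overexpression. Of 17 listed, 6 were higher and 3 lower beyond counting error among 14 tested in the knockdown comparison, and 5 higher and 4 lower among 12 in the overexpression comparison. Their medians were 0.06 and 0.02. ITGB6 and ITGB8, which encode the beta chains of integrins that activate latent TGF-beta, stood at 0.140 and 0.0568 FPKM in the MDA-MB-231 control and 35.7 and 9.27 FPKM in the Ca1a control, opposite to the ligands. ITGB6 was 1.17-fold higher in the overexpression library (1.13 to 1.22). ITGB8 was 2.47-fold higher in the knockdown library (1.30 to 4.97) on 35 reads in the knockdown library and 14 in the control. ITGAV, the alpha chain gene they share, was 1.21-fold lower in the knockdown library (1.16 to 1.27) and 1.07-fold lower in the overexpression library (1.01 to 1.13), and ITGB1, the beta chain gene of the fibronectin receptor, was 1.21-fold higher in the knockdown library (1.19 to 1.23).

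THBS1, the gene of thrombospondin, an activator of latent TGF-beta, was 1.6-fold higher in the overexpression library (1.56 to 1.65), at 7196 reads in the control and 11531 in the overexpression library, and 1.06-fold lower in the knockdown library (1.04 to 1.07). PLAT, the tissue plasminogen activator gene, was 1.26-fold higher in the overexpression library (1.16 to 1.36). FURIN, whose protease cleaves the precursor, had a ratio of 1.04 (0.979 to 1.11) in the knockdown comparison and was 1.10-fold lower in the overexpression library (1.05 to 1.16). LRRC32, the gene of another anchor of latent TGF-beta, had at most 3 reads in any library.

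Among matrix partners of the LTBPs, 8 of 19 genes were tested in each comparison. Of these 2 were higher and 1 lower with knockdown, and 3 higher and 1 lower with overexpression, with medians of -0.03 and -0.10. Of 8 genes of the list at 1 FPKM or more in either control, 5 were at least 2-fold higher in MDA-MB-231, against 26.8% of genes. In Ca1a 2 were higher, against 13.6%. FBN1, a fibrillin gene, and FN1, the fibronectin gene, stood at 3.98 and 39.4 FPKM in the MDA-MB-231 control. They stood at 0.0843 and 1.0 FPKM in the Ca1a control. FBN2, another fibrillin gene, went the other way, at 0.0270 FPKM in the MDA-MB-231 control and 2.41 in the Ca1a control. FN1 was 1.08-fold higher in the knockdown library (1.06 to 1.11), and FBN1 had a ratio of 1.04 (0.966 to 1.12) there. EFEMP1, the fibulin-3 gene, was higher in both comparisons, 1.24-fold in the knockdown library (1.15 to 1.34) and 1.51-fold in the overexpression library (1.40 to 1.62). EFEMP2, the fibulin-4 gene, was 1.29-fold lower in the knockdown library (1.07 to 1.56), and ADAMTSL4, a gene of a fibrillin-binding protein, 1.34-fold lower in the overexpression library (1.06 to 1.70).

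Of 14 co-receptors and receptor partners, 13 were tested in each comparison, with 2 higher and 1 lower in the knockdown library, 5 higher and 3 lower in the overexpression library, and medians of 0.01 and 0.04. NRP1, the neuropilin gene, was 1.15-fold higher in the knockdown library (1.12 to 1.18), as was PMEPA1, a gene of a brake on TGF-beta signalling (1.04 to 1.27). ENG, the endoglin gene, was 1.16-fold lower in the overexpression library (1.06 to 1.27), and BAMBI, the gene of a decoy receptor, 1.32-fold lower (1.12 to 1.56). Of 15 SMADs and regulators, 1 was higher and 5 lower of 13 tested in the knockdown comparison, and 2 higher and 4 lower of 12 in the overexpression comparison, with medians of -0.04 and -0.01. SMAD3 was 1.06-fold higher in the knockdown library (1.02 to 1.09), and SMAD2 was 1.12-fold lower (1.02 to 1.22) and SMAD4 1.11-fold lower (1.01 to 1.23). SKIL, a SMAD corepressor gene, was 1.20-fold lower in the knockdown library (1.09 to 1.31) and 1.14-fold lower in the overexpression library (1.06 to 1.22). NEDD4L, a ubiquitin ligase gene, was 1.19-fold lower in the knockdown library (1.15 to 1.24), and SKI, a corepressor gene, 1.14-fold lower in the overexpression library (1.06 to 1.23). SMAD7, the gene of the inhibitory SMAD, had ratios of 1.02 (0.861 to 1.21) and 1.01 (0.753 to 1.36) in the knockdown and overexpression comparisons.

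In the activin branch, whose receptors also signal through SMAD2 and SMAD3, 2 were higher and 2 lower of 9 tested with knockdown, and 0 higher and 4 lower of 10 with overexpression, of 18 listed. Their medians were 0.05 and -0.17. INHBA, the gene of the activin A subunit, stood at 83.2 FPKM in the Ca1a control and 6.56 in the MDA-MB-231 control, and was 1.18-fold lower in the overexpression library (1.14 to 1.23). INHBB, another subunit gene, alone of the list passed the 2-fold rule in the knockdown comparison, which 0.391% of tested genes passed. It was 2.47-fold higher (1.35 to 4.72), on 40 reads in the knockdown library and 16 in the control. The activin antagonist gene FST was 1.33-fold higher in the knockdown library (1.19 to 1.49), and FSTL3, a related antagonist gene, was 1.27-fold lower in the overexpression library (1.21 to 1.33). ACVR2B, a receptor gene, was 1.27-fold lower in the knockdown library (1.10 to 1.46). GDF11, a ligand gene, had a ratio of 1.28 (0.967 to 1.70) in the overexpression comparison.

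Of 29 TGF-beta target genes, among them LTBP2 and TGFBR1, 7 were higher and 10 lower of 27 tested in the knockdown comparison, and 4 higher and 11 lower of 28 in the overexpression comparison. The medians of this list were 0.01 and -0.07. Over all tested genes, 16.8% were higher and 11.3% lower with knockdown, and 18.1% and 16.2% with overexpression. At a mean of at least 500 these shares were 21.8% and 14.6%, and 23.6% and 20.8%. The 2-fold rule was passed by 1 gene (ANGPTL4, lower) with knockdown, against 0.391% of all tested genes. With overexpression 1 was higher (CTGF) and 1 lower (IL11), against 0.553% in either direction. IL11, a cytokine gene, was 1.40-fold higher in the knockdown library (1.28 to 1.52) and 2.05-fold lower in the overexpression library (1.55 to 2.74). In Ca1a it had 156 reads in the control and 76 in the overexpression library. ANGPTL4, an angiopoietin-like gene, was lower in both comparisons, 2.21-fold in the knockdown library (2.0 to 2.45) and 1.47-fold in the overexpression library (1.37 to 1.57). CTGF, whose product is a secreted matricellular protein, was 2.28-fold higher in the overexpression library (1.69 to 3.11) with a ratio of 1.0 (0.963 to 1.05) in the knockdown comparison. The Ca1a ratio of CTGF rests on 64 reads in the control and 146 in the overexpression library.

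**Figure D4:**
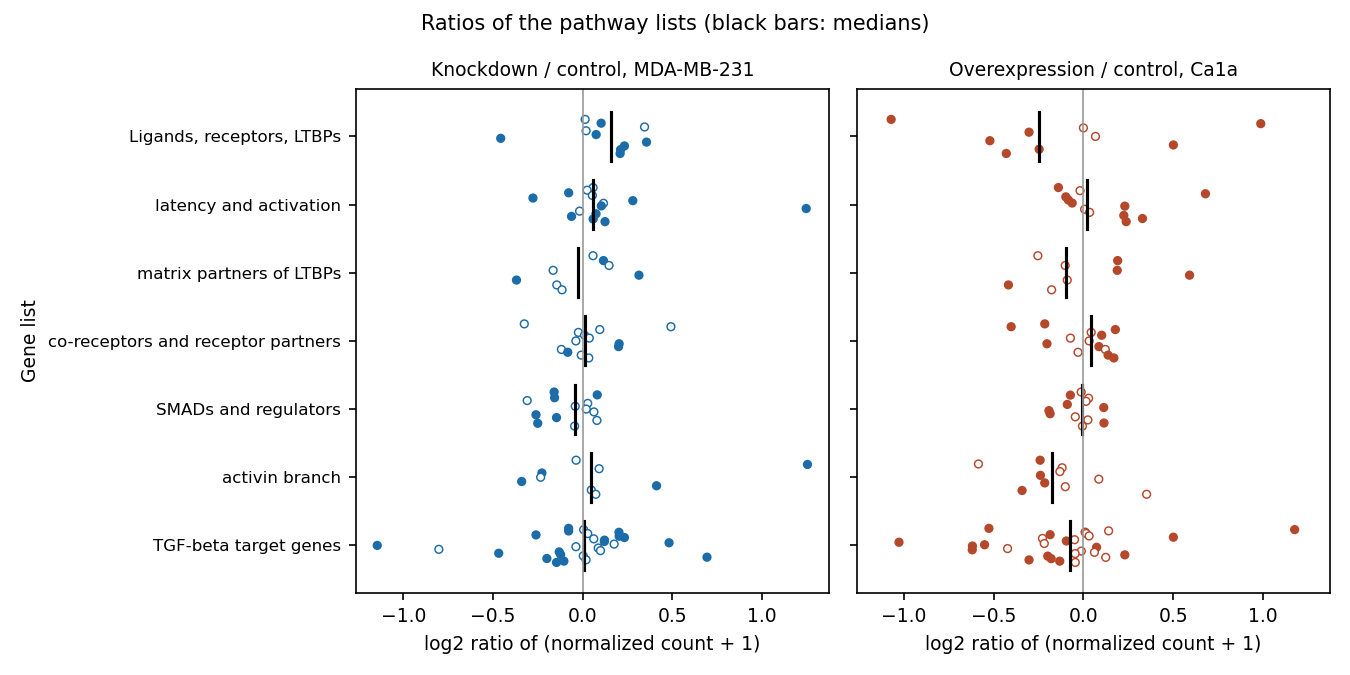
log2 ratio of (normalized count + 1), treated over control, for the 10 family genes and 6 pathway lists in MDA-MB-231 (left) and Ca1a (right), 1 point per tested gene; filled points have 95% counting intervals that leave out 1 and black bars are medians. The medians of the pathway lists lie between -0.17 and 0.06, and those of the family at 0.16 and -0.25.

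Genes with the pattern most like 3 of the members were sought by the distance over 3 values: the log2 ratios of both comparisons and the log2 FPKM ratio of the controls. The search covered 10636 genes measured in the 4 libraries. Nearest to TGFB1 were HIVEP3, TBL1X and FAM196B, at distances of 0.25 to 0.40. Near TGFB2 stood CLCN4 and ZNF320, at 0.21 and 0.24. For TGFBR2 they were NABP1, PSME3 and TMPO, at 0.01 to 0.04. With 1 library per group these distances include counting error and are a description.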

How the data were processed

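RNA-seq of total RNA from 4 cultures, 1 library each, was analysed from the tables of 39261 genes. Per the submitters' processing notes the tools were DESeq, HTSeq, Cufflinks and HISAT2, and the builds hg38 and GRCh38.p5. No version, role or strand setting is given in the sources used here. Columns of both lines are headed as base means, and the headers name no size factor. Those of Ca1a hold whole numbers and were taken as read counts. The MDA-MB-231 columns are a deposited signal and were taken as counts over a size factor. All their values were integer multiples, within 1e-06, of the smallest value in the column other than 0, and these multiples served as reads. Both deposited tables add the authors' fold ratio, log2 fold change, p-value and adjusted p-value. Only whether the adjusted p-value was under 0.05 is stated here. FPKM come from another deposited table, with an unstated denominator.

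Levels carry exact Poisson intervals and ratios exact conditional binomial (Clopper-Pearson) intervals at 95%. The ratio of TGFB2 to TGFB1 reads carries an exact conditional interval of an odds ratio. No molecular identifiers are recorded, so reads may repeat a molecule: intervals cover counting error only. The 3 reads put in place of a count of 0 for TGFBR3 are a set floor. All genes were computed and the family read out. No test between groups was possible.

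Named genes were the 10 members, 17 pathway genes and up to 2 genes per list and comparison with the largest absolute log2 ratio at a mean of at least 100. INHBB was added because it passed the 2-fold rule, and FBN2 as the other fibrillin gene listed. Some are not reported here. The members and lists were chosen with earlier results of these data known. Positions come from GENCODE release 29 on GRCh38, and start regions from RefSeq on GRCh38.p14, where all 10 members matched. No protein sequence was used here. Without a stated strand setting, reads of overlapping and antisense genes cannot be told apart. Exons of TGFB1, TGFB2, TGFB3, LTBP1 and LTBP2 overlap another gene. Software was python 3.11.15, numpy 2.4.6, pandas 2.3.3, scipy 1.17.1, matplotlib 3.10.9, R 4.3.3 and edgeR 4.0.16 (for TMM only).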

Additional observations from a re-analysis of the deposited data

How the results depend on the processing

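Alternatives were FPKM, pseudocounts of 0.5 and 5, 3 other scalings (TMM, total reads, a median of 0), a mean of at least 100 or no filter, and 1.5-fold. For the controls they were a pseudocount of 1 FPKM, reads over total reads, a minimum of 0.1 FPKM and scaling by the median. No log2 ratio beyond counting error changed sign. Of those within it, TGFB1 in the knockdown comparison went from 0.01 to -0.02 scaled by total reads and -0.04 in FPKM, TGFBR1 from 0.02 to -0.01 scaled by total reads, and TGFB3 in the overexpression comparison from 0 to as low as -0.01. In the overexpression comparison a mean of at least 100 left 1 gene higher beyond counting error and 0 past 2-fold, since TGFB1 and TGFB2 then drop out, and 1.5-fold gave 2 genes past the threshold. The other 43 alternative counts stayed within 1.5 times. Over all alternatives the log2 ratio of TGFB1 in the overexpression comparison ran from -1.13 to -1.02 and that of TGFB2 from 0.77 to 0.99. In the knockdown comparison LTBP1 ran from 0.32 to 0.38. No paired analysis was possible because each group held 1 library. Depth limits TGFB1, TGFB2 and TGFB3 in Ca1a, which rest on 58 to 124 reads.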
